A study of Mus musculus with 5 samples.

Results

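The 10 genes described here encode transcription factors that mark the primitive streak and the mesoderm that leaves it: T (also called Brachyury or Tbxt), Eomes, Mixl1, Mesp1, Mesp2, Tbx6, Gsc, Msgn1, Evx1 and Lhx1. They were taken by symbol from the RefSeq annotation of mm10, as 10 of 21774 protein-coding genes. A DNaseI hypersensitive site (DHS) was given to a gene if it came within 1 kb of any of its transcription start sites (TSS), or if it lay inside the gene or up to 100 kb from its TSS and no other protein-coding gene was nearer. Sites of the 5 stages were then joined into merged regions, of which 61 belonged to the 10 genes, out of 68846 in all. One of the 61, at the T promoter, also met the rule for the predicted gene LOC115486424.

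DNaseI-seq, which maps chromatin accessible to the nuclease, was performed on purified populations along the path from mouse embryonic stem (ES) cells to blood. All 5 came from a single ES line of strain 129 with a GFP reporter of Brachyury, and the labels name no other allele. Per the study's methods, ES cells were kept with LIF and the later stages were grown with cytokines. Mesoderm (MES) was sorted from embryoid bodies as Bry:GFP+ Flk1- and the hemangioblast (HB) as Bry:GFP+ Flk1+. Hemogenic endothelium (HE) was Tie2+ cKit+ CD41-, and its label also carries Bry.GFP+. Hematopoietic progenitors (HP) were CD41+, and macrophages (MAC) were CD11b+ cells grown from CD41+ cells. One list was analysed for each stage, and the MAC label names a first and a second replicate together, so no difference below could be set against a spread between replicates and no p-value is given. MES and HB were gated on the reporter of T, 1 of the genes described, and HE by its label too. The lists give positions only. A stage without a site means that none was listed there, the read depth cannot be seen from these values, and in bulk populations fewer cells with open chromatin cannot be told apart from less open chromatin per cell.

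In the gastrulating embryo, Nodal, Wnt and BMP signals induce the streak, and cells passing through it switch on T-box and homeobox factors before taking up mesodermal or endodermal fates. T and Eomes are T-box factors at the top of this cascade, Mesp1 marks the first mesoderm that forms heart and vessels, and Tbx6, Msgn1 and Mesp2 belong to the paraxial mesoderm that forms somites. The hemangioblast is a mesodermal cell with the potential to make endothelium and blood, and hemogenic endothelium is the endothelial stage from which blood cells emerge.

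The sequences just upstream of 3 of the genes are shown because they differed in CpG content and because Msgn1 differed from T and Gsc in its promoter sites. They are the 250 bases before the RefSeq TSS on the strand of the gene (GRCm38.p6, the mm10 build), with each CpG in capitals. A promoter site of T and of Gsc was listed in MES and HB and at no later stage, and Msgn1 had none at any stage. The T sequence lies at chr17:8434173-8434422 on the plus strand and holds 14 CpG, that of Gsc at chr12:104473237-104473486 on the minus strand with 22, and that of Msgn1 at chr12:11208949-11209198 on the minus strand with 4.
T: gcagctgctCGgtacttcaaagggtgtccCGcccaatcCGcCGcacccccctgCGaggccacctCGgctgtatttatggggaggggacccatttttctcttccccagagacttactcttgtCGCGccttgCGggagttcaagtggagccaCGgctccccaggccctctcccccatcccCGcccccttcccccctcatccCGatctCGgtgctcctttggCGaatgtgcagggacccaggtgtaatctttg
Gsc: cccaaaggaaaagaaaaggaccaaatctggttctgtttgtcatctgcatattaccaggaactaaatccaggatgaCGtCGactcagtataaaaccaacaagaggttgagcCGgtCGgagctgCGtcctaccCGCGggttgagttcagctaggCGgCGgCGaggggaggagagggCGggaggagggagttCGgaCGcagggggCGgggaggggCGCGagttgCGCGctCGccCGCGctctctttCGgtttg
Msgn1: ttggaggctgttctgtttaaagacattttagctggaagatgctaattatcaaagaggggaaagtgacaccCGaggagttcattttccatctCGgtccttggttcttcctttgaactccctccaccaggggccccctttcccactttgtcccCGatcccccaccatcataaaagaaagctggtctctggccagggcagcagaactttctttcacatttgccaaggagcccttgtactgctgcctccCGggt

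Over the 300 bases of each promoter in the RefSeq table (250 before the TSS and 50 after it), the ratio of observed to expected CpG was 0.607 for T, 0.934 for Gsc and 0.961 for Lhx1. These were the 3 promoters called CpG-rich, meaning that at least 0.5 of the bases were G or C and this ratio reached 0.6, among the 9 found in the table. Msgn1, at 0.197, and Mesp1, at 0.174, had the fewest CpG for their base composition in these 300 bases. Over the central 500 bp of the open Mesp1 promoter region, which was centred at +0.5 kb, the ratio was 0.962. Mixl1 had no entry. The share of genes with a promoter site differed by CpG content. Of the 8453 genes with a CpG-rich promoter, 88.2% had a promoter site in MES and 80% in HP. Of the 9039 genes without one, 26.1% and 21.1% did. CpG content did not divide the group in this way at MES or HB. Eomes, Mesp1, Mesp2, Tbx6 and Evx1 were not called CpG-rich over the 300 bases, yet both stages listed a promoter site for each. Mesp1 was open although its ratio was below that of Msgn1, the only gene of the group without such a site.

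A promoter site, meaning a site within 1 kb of a TSS, was listed for 9 of the 10 genes in MES and the same 9 in HB, where 55.5% and 57.1% of all protein-coding genes had one. In HE there were 6 of 10, close to the 59.9% of all genes. HP had 2 of 10, Tbx6 and Lhx1, against 48.6% of all genes, and MAC had 1 of 10, Mesp2, against 48.7%. The low counts depend on the reach: at 2 kb MAC had 4 genes (Mixl1, Mesp2, Tbx6 and Gsc), and at 100 bp HP had 1 (Lhx1) and MAC 0. MAC also had 0 when narrow sites were dropped, and HP had 1 (Tbx6) with only sites of median width or more. The share over all genes ranged from 48.6% to 59.9%. By pattern, T, Eomes, Mixl1, Mesp1, Gsc and Evx1 (6 of 10) were open at the promoter in MES or HB and none in HP or MAC, a record shared by 8.81% of all genes. T and Gsc (2 of 10) were open in MES and HB and in none of the later stages, as were 1.37% of all genes. A promoter site at all 5 stages was listed for no gene of the group, though it was the most common record over all genes at 42.0%. One gene, Msgn1, had none in any stage, as did 34.3% of all genes.

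**Figure D1:**
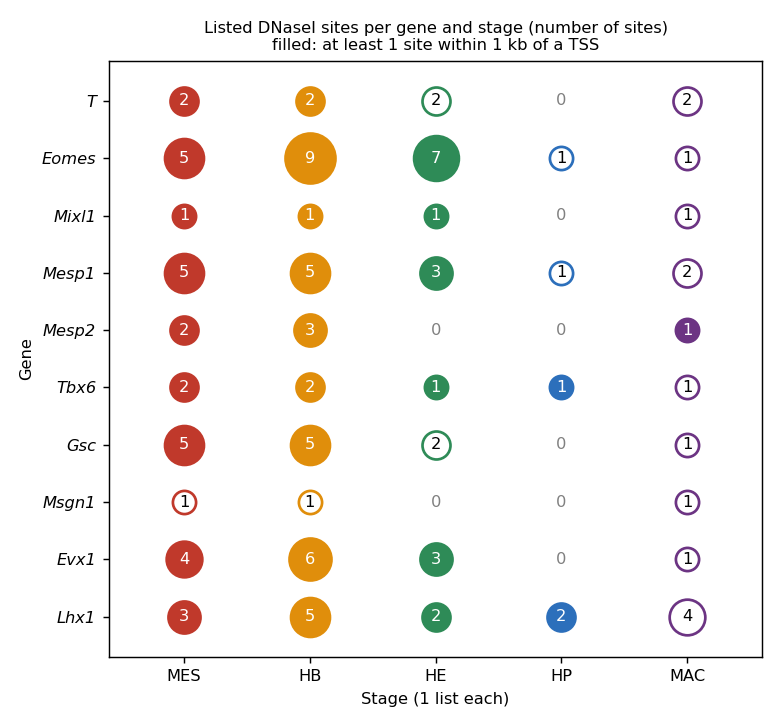
DNaseI sites listed for each of the 10 genes (vertical axis) in each stage (horizontal axis). The number and the area of a circle give the count of sites, a filled circle marks a gene with at least 1 site within 1 kb of a TSS, and filled circles fall from 9 genes in MES and HB to 1 in MAC.

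The T-box genes come first. T is required for posterior mesoderm and the notochord, and its TSS lies at chr17:8434423. Its promoter site was 1000 bp wide in MES, from -931 to 68 bp relative to the TSS, and 1200 bp wide in HB. HE, HP and MAC had none. Both sites lay over a merged region at chr17:8433742-8434278, whose centre falls in a coding exon of LOC115486424. Beyond the promoter, an intergenic region at +34.5 kb (chr17:8468588-8469241) was open in MES, HB, HE and MAC, with sites of 400, 800, 800 and 300 bp. The widest T site beyond the promoter was a 1700-bp HE site at +22.4 kb (chr17:8456524-8457023). A MAC site of 600 bp at +21.3 kb overlapped it by 64 bp, but the windows around their middles did not merge. T had 2 sites in each of MES, HB, HE and MAC and none in HP. In HE and MAC both of them were downstream of the gene.

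Eomes, needed for mesoderm to leave the streak and for definitive endoderm, held the most regions of the group. It had 5 MES, 9 HB, 7 HE, 1 HP and 1 MAC sites, joined into 15 regions, and 1.86% of all genes had as many or more. Its promoter site was 1400 bp wide in MES, against 1500 bp in HB and 1900 bp in HE. The HE site was shifted upstream, running from -1385 to 514 bp, whereas the MES site ran from -388 to 1011 bp. In consequence the 500-bp windows around their middles did not merge. The HE region lies at chr9:118477501-118478000, in an intron of the non-coding transcript Gm33408, and the MES and HB region at chr9:118478201-118478750, in the untranslated part of an Eomes exon.

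Downstream of Eomes, a region at +9.3 kb (chr9:118487101-118487850), in an intron of the non-coding transcript Gm33460, held the widest MES site of the group, at 2000 bp. Only 0.191% of MES sites were at least as wide. The HB site there was 1700 bp. An 1800-bp HE site, centred at +11.0 kb and placed in a region of its own, overlapped the end of the MES site by 300 bp. The Eomes region open in most stages was intergenic, at -88.4 kb (chr9:118389330-118390150). Its sites measured 1200 bp in MES, 1500 bp in both HB and HE, and 700 bp in HP, and it was the only Eomes region listed in HP.

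Tbx6 commits cells to paraxial mesoderm, and a lack of it diverts them to a neural fate. Its site near the TSS measured 1200, 1300, 1500 and 1000 bp in MES, HB, HE and HP. None of the 4 reached the TSS: the nearest edge was at -203 bp in MES and at -507 bp in HP, so a reach of 100 bp left Tbx6 with 0 stages. A MAC site of 300 bp lay at -1473 to -1174 bp, just outside the limit of 1 kb, and merged with the others into the single region of the group open in all 5 stages. That region, at chr7:126779910-126780930, has its centre in the untranslated part of an exon of the neighbouring gene Ypel3. The other Tbx6 region, at +3.9 kb (chr7:126785081-126785608) in the untranslated part of a Tbx6 exon, was open in MES, with 700 bp, and in HB, with 1000 bp. Tbx6 thus had 2 sites in MES, 2 in HB and 1 in each later stage.

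**Figure D2:**
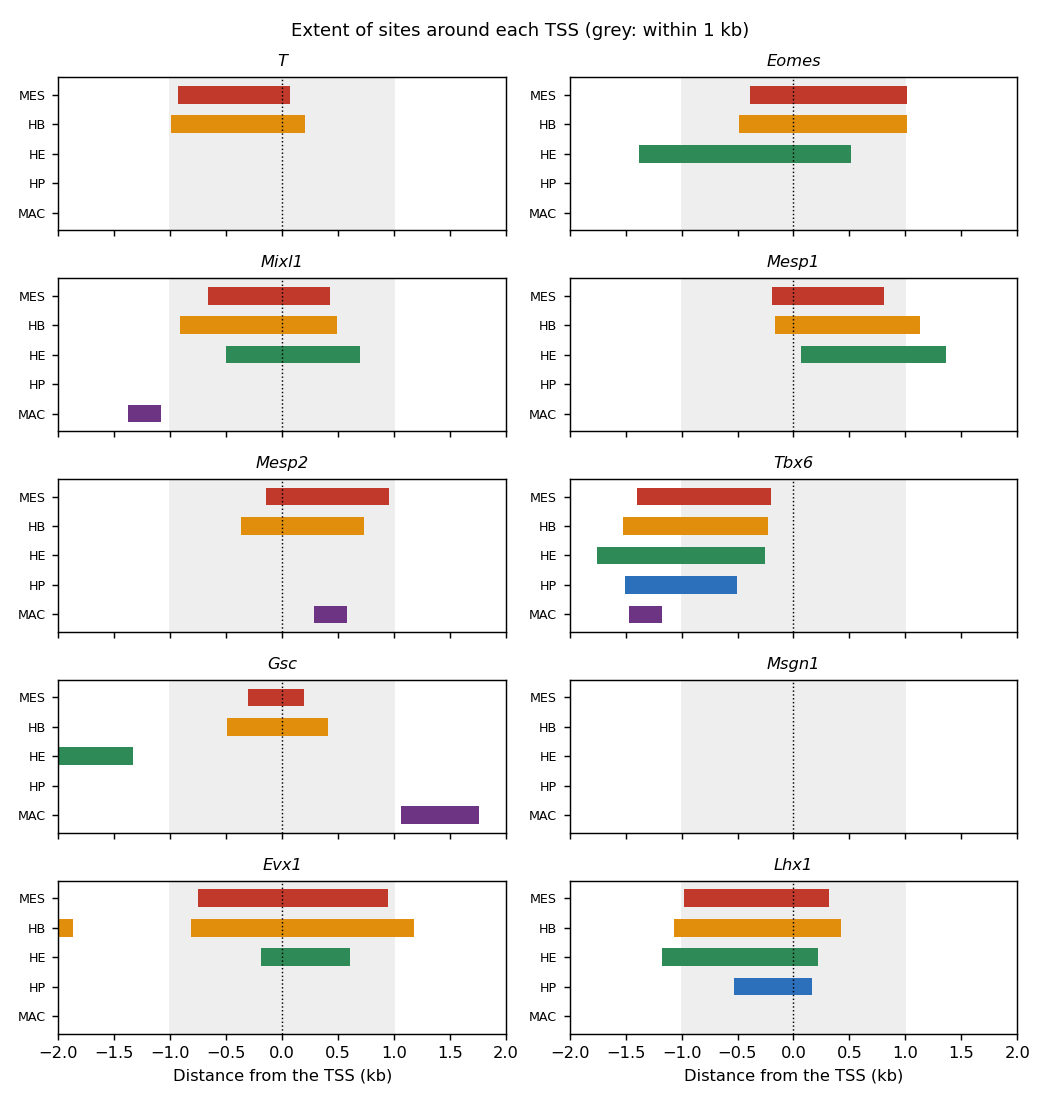
Extent of the listed sites up to 2 kb on either side of the TSS of each gene, in kb, with a lane for each stage and the reach of 1 kb shaded grey. Msgn1 has no bar, the Tbx6 bars end at -203 bp or further upstream, and the Eomes bar of HE is shifted upstream of those of MES and HB.

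Among the homeobox genes, Mixl1 acts in the mesendoderm of the streak. Its promoter site measured 1100, 1400 and 1200 bp in MES, HB and HE, all across the TSS at chr1:180697034, in 1 region at chr1:180696691-180697497. The only other site was a 300-bp MAC site that ended at -1081 bp (region at chr1:180698015-180698514). Mixl1 had no site in HP, and these 2 regions were all it had.

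Gsc encodes goosecoid, a factor of the organizer and anterior streak. Its promoter site was narrow, 500 bp in MES and 900 bp in HB (region at chr12:104473031-104473545), and no later stage had one within 1 kb. Sites of later stages lay just outside. HE had one of 1900 bp at -2.3 kb (chr12:104475271-104475770), in an intron of the non-coding transcript Gm10000, which was the widest Gsc site, and MAC had one of 700 bp in a Gsc intron at +1.4 kb. With a reach of 2 kb, Gsc counted as open in MES, HB, HE and MAC, and with only sites of median width or more it was open in HB alone. Over all its regions Gsc had 5 MES, 5 HB, 2 HE and 1 MAC sites and none in HP. Regions at -82.1 and -59.1 kb were open in MES only, those at -28.7 and -19.1 kb in HB only, and that at +32.8 kb in MES, HB and HE.

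Evx1, an even-skipped type homeobox gene of the posterior streak, had a promoter site of 1700 bp in MES and 2000 bp in HB, and 1 of 800 bp in HE that lay within the span of both. The MES and HB region is at chr6:52313898-52314479, in a coding exon of Evx1, and the HE region at chr6:52313459-52313958, in the untranslated part of an exon. Evx1 had 4 MES, 6 HB and 3 HE sites, none in HP, and 1 MAC site of 300 bp at -9.9 kb. Intergenic regions at -22.3 kb and -7.3 kb were open in MES, HB and HE and were CpG-rich over their central 500 bp. The first of these (chr6:52290959-52291497) held the widest Evx1 site beyond the promoter, with 900, 1200 and 1400 bp at the 3 stages.

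Lhx1, a LIM homeobox gene needed for the head organizer and later for the kidney, had a promoter site in every list but that of MAC. The site spanned 1300, 1500, 1400 and 700 bp in MES, HB, HE and HP, each time across the TSS, in 1 region at chr11:84525464-84526260. Lhx1 had 3 MES, 5 HB, 2 HE, 2 HP and 4 MAC sites, the most of any gene of the group in MAC. None of the 4 MAC sites was in a region open in MES or HB. They lay at -87.7, -72.3, -29.5 and +2.7 kb, and the first of these regions was also open in HE and HP. Regions at -79.3 and -67.5 kb, in contrast, were open in MES and HB only, and the second (chr11:84592807-84593316) held the widest Lhx1 site beyond the promoter, at 1100 bp in MES and 1300 bp in HB.

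The remaining 3 genes encode basic helix-loop-helix factors. Mesp1 had a promoter site of 1000 bp in MES and of 1300 bp in both HB and HE. The HE site began 64 bp downstream of the TSS, while those of MES and HB crossed it (region at chr7:79792627-79793530, with its centre in a coding exon). Mesp1 had 5 MES, 5 HB, 3 HE, 1 HP and 2 MAC sites, all within 25 kb.

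Upstream of Mesp1 the sites changed in extent from stage to stage. MES had a site of 700 bp at -3.8 kb and 1 of 900 bp centred at -5341 bp. In HB a single site of 2500 bp ran from -5868 to -3369 bp and covered both. It was the widest site of the group, and 0.0283% of HB sites were at least as wide. In HE a site of 1300 bp and in HP a site of 700 bp remained at the far end, and MAC had none. The HB site gave a merged region of its own (chr7:79797959-79798458), so that 1 of the HB-only regions of the group overlaps sites of MES, HE and HP. On the other side, an intergenic region at +4.1 kb (chr7:79789181-79789758) was open in MES and HB with 900 bp each. A region at +12.7 kb in an intron of Wdr93 was open in MES, HB, HE and MAC.

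Mesp2, the neighbour of Mesp1, sets the segment boundaries of the presomitic mesoderm. Its promoter site was 1100 bp in MES and 1100 bp in HB, and a 300-bp site inside the gene, 283 to 582 bp from the TSS, was the only promoter site of the group in MAC (region at chr7:79810659-79811409, coding exon). HE and HP had no Mesp2 site of any kind. Beyond the promoter, the widest sites were 600 bp in HB, at -8.1 kb (chr7:79802409-79802908) and at +7.8 kb (chr7:79818281-79818808), and the latter was also open in MES with 300 bp.

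Msgn1, which drives differentiation of the presomitic mesoderm, had no promoter site at any stage. Its 3 sites lay downstream. A region at +12.4 kb (chr12:11196246-11196780) was open in MES with 300 bp and in HB with 800 bp, and a 300-bp MAC site lay at +13.7 kb. Both regions fall in introns of the non-coding transcript 9530020I12Rik, and HE and HP had no Msgn1 site. Msgn1 differed in this from the other paraxial genes, as Tbx6 and Mesp2 each had a promoter site in both MES and HB. The Tbx6 sites stopped short of the TSS, however, and at a reach of 100 bp Tbx6 had 0 stages as well.

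**Figure D3:**
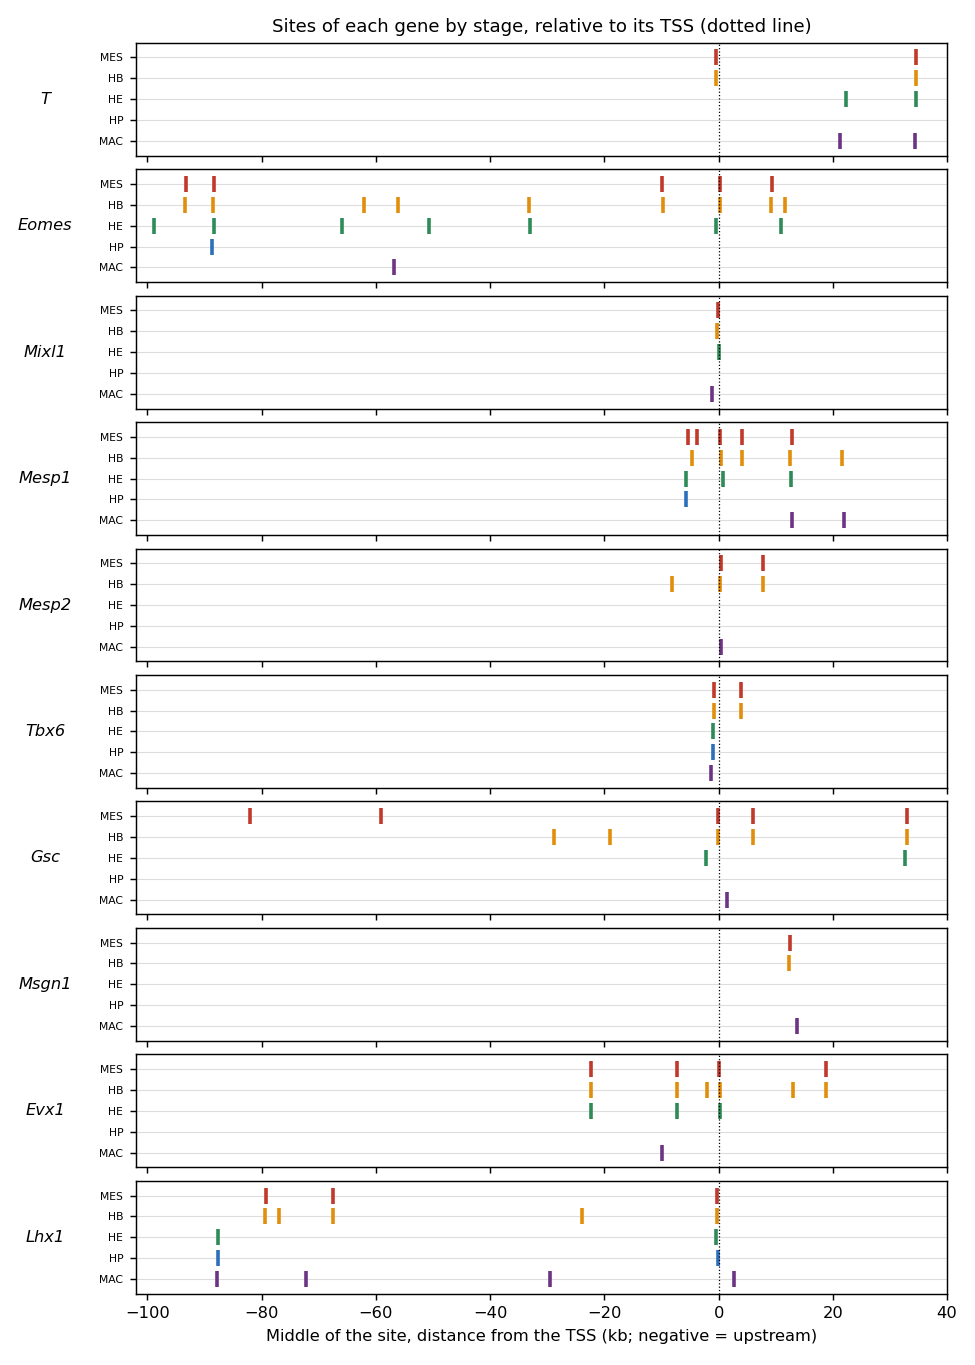
Middle of every listed site of the 10 genes by its distance from the TSS in kb (negative values are upstream), with a lane for each stage. Eomes, Gsc and Lhx1 have sites beyond 50 kb, Mixl1 and Tbx6 have theirs close to the TSS, and the HP lanes hold 5 sites in all.

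Counted over the group, there were 30 MES, 39 HB, 21 HE, 5 HP and 15 MAC sites. As a share of each list these were 0.137%, 0.158%, 0.0631%, 0.0282% and 0.04%. HB therefore held the most sites of the group and HP the fewest, while the longest list was that of MAC. All 10 genes had at least 1 site in MES, in HB and in MAC, where 63.8%, 65.4% and 64.6% of all genes had one. In HE 8 of 10 had one, against 69.1%, and in HP 4 of 10, against 56.8%. In MAC, 14 of the 15 sites lay beyond 1 kb of a TSS, and of all 37444 merged regions open in MAC, 26892 did. The median width of the 15 sites was 400 bp against 600 bp over the MAC list. In MES and HB, the medians of the group were 900 and 1000 bp against 800 and 900 bp over those lists. In HE both were 1200 bp, and in HP the median of the 5 sites was 700 bp against 900 bp. The DNA covered by sites of the group came to 25200, 40400, 25000, 3600 and 7500 bp from MES to MAC.

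The area closest to each of the 10 genes within 100 kb came to 0.683 Mb in all and held 8.93 regions per 100 kb, against 3.84 over the areas of all protein-coding genes. The excess was not the same at each stage. Regions of the group numbered 4.39 per 100 kb in MES and 5.71 in HB, where all genes had 1.29 and 1.43. In HE they numbered 3.07 against 1.89, in HP 0.732 against 1.05, and in MAC 2.19 against 2.12. The density of open regions around the 10 genes was thus above that of all genes in MES, HB and HE, below it in HP and close to it in MAC.

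**Figure D4:**
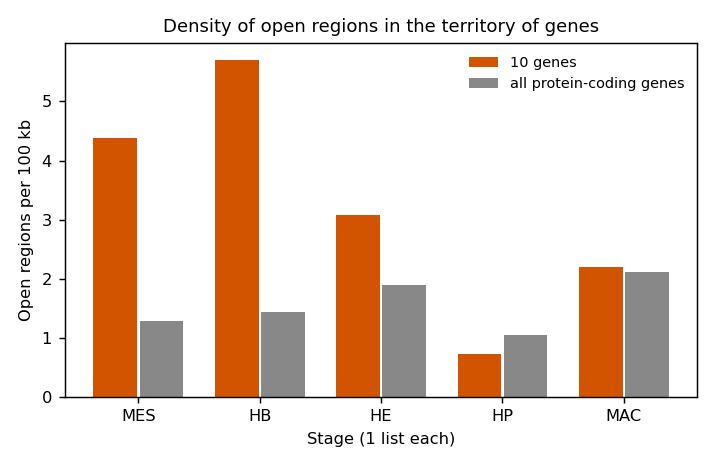
Open regions per 100 kb in the area nearest to the 10 genes (orange) and to all protein-coding genes (grey) at each stage, with 1 list per stage. The orange bars are tallest in HB, at 5.71, and fall to 0.732 in HP, below the grey bar at 1.05.

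Of the 61 regions, 29 (47.5%) were open in MES or HB and in none of the later stages, where the share over all regions was 14.5%. Another 18 (29.5%) were open in HE, HP or MAC and not before, against 58.2% of all regions, and 14 (23%) were open in MES or HB and again in a later stage, near the 27.3% of all regions. MES and HB alone shared 15 regions (24.6%, against 4.72% of all regions). HP held 5 of the 61 (8.2%), against 25.8% of all regions. With a reach of 50 kb it held 3 of 46, against 25.8%, and with only sites of median width or more 1 of 34, against 27.5%. None of the 61 was open in HP only, as were 2.26% of all regions, a share so small that 0 of 61 is near it. The Tbx6 region was the 1 of 61 open in all 5 stages, a pattern of 13.2% of all regions, and it lost this call with windows merged at 250 bp or with narrow sites dropped. Promoter regions did not make up this difference by themselves: of the 50 regions beyond 1 kb of a TSS, 25 (50%) were open in MES or HB only, against 16.2% of all such regions. HE-only regions numbered 8, of which 3 held a site at least 1800 bp wide: 1 at the Eomes promoter, 1 at +11.0 kb from Eomes and 1 upstream of Gsc. Over the HE list, 10.9% of sites were at least 1800 bp wide. The median site width of HE-only regions was 1350 bp in the group and 900 bp over all such regions. These HE-only regions were 13.1% of the group, against 17.1% of all regions, and the 9 MAC-only regions were 14.8% against 31%.

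These classes rest on windows around the middle of each site, and sites of different stages that were shifted or unequal in width can overlap without merging. Of the 29 regions called open in MES or HB only, 5 held a site that overlapped a later-stage site: the promoter regions of Eomes and Evx1 and the regions at +9.3 and +11.6 kb from Eomes overlapped HE sites, and that at -4.6 kb from Mesp1 overlapped HE and HP sites. Of the 18 called open in later stages only, 3 overlapped a MES or HB site, all of them HE-only regions (at the Eomes and Evx1 promoters and at +11.0 kb from Eomes). With the deposited intervals merged at any overlap, 23 of 54 regions (42.6%) were open in MES or HB only, against 13.5% of all regions.

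**Figure D5:**
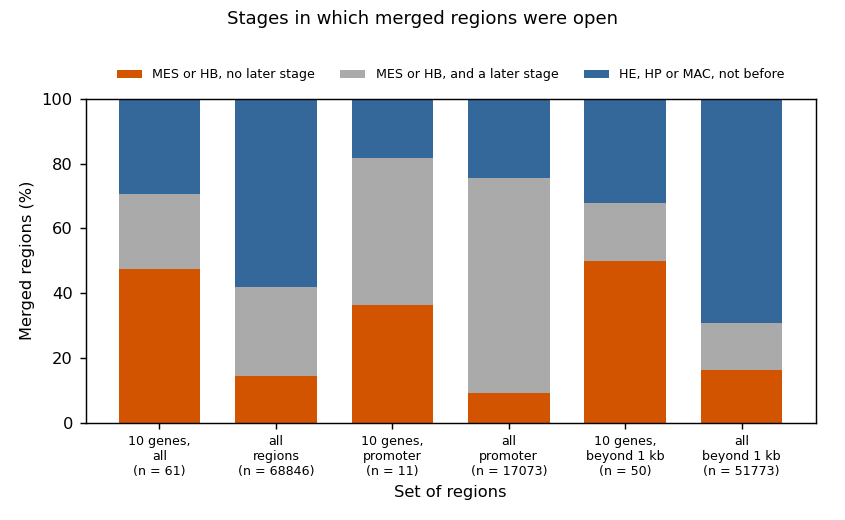
Share of merged regions, in percent, open in MES or HB and no later stage (orange), on both sides (grey), or in HE, HP or MAC and not before (blue), for the 10 genes and for all regions, together and split by distance from a TSS. The orange part is 47.5% for the 61 regions of the group against 14.5% for all regions, and 50% against 16.2% beyond 1 kb.

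Where MES and HB shared a region of the group, the HB site was usually the wider. It was wider in 23 of 26 regions, equal in 2 and narrower in 1, the region at +9.3 kb from Eomes, with medians of 900 bp in MES and 1100 bp in HB. Over all 17886 regions shared by MES and HB it was wider in 14171, with the same medians. The HB site was thus usually the wider over the lists as a whole too.

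Of the 50 regions beyond 1 kb, 31 were upstream and 19 downstream of the gene's TSS. Within 10 kb there were 17, and beyond 50 kb there were 15. Of the 50, 3 lay inside the body of their own gene, and the genes were 567 to 8074 bp long. Over all 61 regions, 31 had an intergenic centre and 19 one in an intron of a non-coding transcript, among them Platr11 beside Eomes. Of the 19, 3 were also in an exon of Eomes or Evx1. These positions were not counted over all regions, so they describe the 10 genes only.

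Sequence motifs were counted as exact letters, on either strand, within the 500 bp at the centre of each region. The T-box letters GGTGTGA were found in 9 of the 61 regions (14.8%), against 7.99% of all regions. Of the 25 regions beyond 1 kb that were open in MES or HB only, 8 (32%) held them, against 14.5% of the 8378 such regions in the merged set. The base composition differed too, with a median GC content of 53.6% in the 25 regions and 50.8% in the 8378. In the same 25 regions, the GATA letters AGATAA were found in 14 (56% against 30.2%), the TCF letters CTTTGAT in 4 (16% against 12.9%), the TEAD letters CATTCC in 7 (28% against 33.5%), the RUNX letters TGTGGT in 7 (28% against 31.5%) and the SOX letters ACAATG in 2 (8% against 19.2%). The Goosecoid-type letters TAATCC were in 4 (16% against 19.8%), the FOXH1 letters AATNCACA in 2 (8% against 8.13%) and the octamer ATGCAAAT in 1 (4% against 4.33%).

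Stretches with the T-box match are printed for 7 of these 8 regions, 2 of them at Eomes, itself a T-box gene. They show where letters that T-box factors can bind lay in chromatin around genes of the group. Each has 25 bases on either side of the match, which is in capitals, and is read 5′ to 3′ on the strand that holds GGTGTGA (GRCm38.p6). The eighth region is that at +3.9 kb from Tbx6. The Mesp1 stretch also holds a FOXH1 match on the other strand, which shares letters with the T-box match. Open in MES and HB were the regions of Mesp1 at +4.1 kb (chr7:79789418-79789474, minus strand) and Gsc at +6.1 kb (chr12:104467296-104467352, minus), though the Gsc stretch lies inside the HB site only and outside the 200-bp MES site. Open in HB only by merged regions were those of Eomes at -56.2 kb (chr9:118421856-118421912, minus) and +11.6 kb (chr9:118489707-118489763, minus), Mesp2 at -8.1 kb (chr7:79802748-79802804, plus), Gsc at -28.7 kb (chr12:104501970-104502026, minus) and Lhx1 at -77.0 kb (chr11:84602747-84602803, minus). The whole 300-bp HB site at Eomes +11.6 kb, the printed stretch included, also lies inside the 1800-bp HE site centred at +11.0 kb. That HB site was narrow, as 99.8% of HB sites were at least as wide. The regions at -28.7 kb from Gsc and -77.0 kb from Lhx1 held a further match each.
Mesp1 +4.1 kb: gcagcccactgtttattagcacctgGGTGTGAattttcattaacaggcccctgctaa
Gsc +6.1 kb: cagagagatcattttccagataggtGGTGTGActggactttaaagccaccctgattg
Eomes -56.2 kb: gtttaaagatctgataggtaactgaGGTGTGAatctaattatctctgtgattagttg
Eomes +11.6 kb: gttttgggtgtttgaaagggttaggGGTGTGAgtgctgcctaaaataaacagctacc
Mesp2 -8.1 kb: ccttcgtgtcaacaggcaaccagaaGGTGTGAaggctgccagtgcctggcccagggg
Gsc -28.7 kb: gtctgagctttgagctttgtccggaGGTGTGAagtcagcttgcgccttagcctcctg
Lhx1 -77.0 kb: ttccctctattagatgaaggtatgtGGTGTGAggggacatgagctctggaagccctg

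The ninth region with the T-box letters was the Mesp2 promoter, with 2 matches. Regions of T, Mixl1, Msgn1 and Evx1 held none. The TCF letters occurred in 2 of the 11 promoter regions, those of T and Mixl1 (18.2%, against 3.4% of all promoter regions). The stretch of 57 bases around the match in T, at chr17:8433996-8434052 (plus strand), is shown because T is a classical target of Wnt signalling, with the match in capitals.
T promoter: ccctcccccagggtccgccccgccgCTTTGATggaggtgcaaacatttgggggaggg

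Among the 11 promoter regions, 9 (81.8%) were CpG-rich over their central 500 bp, against 64.7% of all promoter regions. Those that were not were the Tbx6 region and the MES and HB region of Evx1. The class could differ from that of the 300 bases around the TSS. The promoter regions of Eomes, Mesp1 and Mesp2 and the HE region of Evx1 were CpG-rich here, though the 300 bases of these genes were not. Among the 25 regions beyond 1 kb that were open in MES or HB only, none was CpG-rich, against 3.8% of all such regions. The match letters, the GC content and the CpG content describe sequence only, and whether a factor was bound was not tested.

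Other genes of the same pathway were counted by the same promoter rule. Of 19 genes of the signals that induce the streak, 14, 15, 14, 11 and 10 had a promoter site from MES to MAC in turn, and 10 had one at all 5 stages, among them the signal transducers Smad1, Smad2 and Smad3 and the beta-catenin gene Ctnnb1. Over all genes the shares by stage were 55.5%, 57.1%, 59.9%, 48.6% and 48.7%, and 42.0% had one throughout. Of the 19, another 4 had a promoter site in MES or HB and none in HP or MAC, the record of 8.81% of all genes: the ligand genes Nodal, Wnt8a and Fgf4 and the Wnt effector Lef1. Tdgf1, Wnt3a and Bmp4 had none at any stage. Of 22 other streak and mesoderm genes, 15, 14, 13, 8 and 5 had a promoter site at the successive stages, 5 had one throughout, and 7 had one in MES or HB and none in HP or MAC, again beside 8.81% of all genes.

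Genes with the record most like the group were found among those that share the promoter pattern of a member, by the cosine of the base pairs covered at the 5 stages to the sum over the 10 genes. With a promoter site in MES and HB only, they were Atoh8 (0.9934), Kcnq3 (0.9922) and Rbpjl (0.9915) among 297 genes. With MES, HB and HE, they were Boc (0.9954), Insyn2a (0.993) and Dkk1 (0.9928) among 833. With MES, HB, HE and HP, they were Frem2 (0.9935), Mdfi (0.9931) and Ptprk (0.9887) among 827. With MES, HB and MAC, the pattern of Mesp2, they were Espn (0.9317), Gdpd2 (0.8802) and Tnnt3 (0.8781) among 29. Each comparison rests on the same 5 lists, which differ in length and site width.

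The labels of the stages were compared with promoter sites of their markers. T, Kdr and Pdgfra each had a site in MES and HB, but Kdr had one in all the other stages too and Pdgfra in HE and MAC. Tek and Cdh5 had a site in HE alone, and Kit in every stage except MAC. Itgam, Csf1r and Adgre1 had theirs in MAC and nowhere else. Of the 3 HP markers, Itga2b had a site in HP and HE, while Gfi1b had one in MAC alone and Myb in HE alone. Markers of other cells were counted beside them. Of 4 pluripotency genes, 3 had a site in MES, 3 in HB, 1 in HE and none in HP or MAC. Of 3 definitive endoderm genes, 2, 3, 3, 1 and 0 had one from MES to MAC, and of 3 neural genes 2, 3, 3, 3 and 1. The shares over all genes were 55.5%, 57.1%, 59.9%, 48.6% and 48.7% in the same order. The pluripotency count fell across the stages as that of the group did, while the neural count was highest from HB to HP. Their part in the records of the 10 genes was not tested. The lists ran from 17734 sites (HP) to 37456 (MAC), and these were the 2 stages with the fewest promoter sites of the group. The part of list length in these counts was not tested.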

How the data were processed

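DNaseI-seq lists of 5 samples, 1 per stage, were analysed. From raw reads, the authors took trimmed, uniquely aligned (mm10) and deduplicated reads into DFilter with 100-bp bins; the submitters' processing notes name Bowtie and HOMER. Versions are not given in the sources used here. The deposited values are other than counts: the start and the end position of each site, without score or depth. Positions were read as 0-based starts and printed 1-based.

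TSS came from all RefSeq transcripts of protein-coding genes (GRCm38.p6). Windows of 500 bp were merged when they shared 125 bp or more, the limits of the study, which centred them on summits. Summits were not used here, and windows were centred on site middles; a region belonged to a gene through its sites. RefSeq promoters were matched by symbol for 9 of the 10 genes. Motifs were matched as exact letters. Named were all 10 genes, each region within 1 kb of their TSS and the widest beyond it, those open in all 5 stages, and the 3 closest genes per promoter pattern; other regions were chosen after their values were seen. The members, gene lists, markers and motifs were chosen with earlier results of these data known. Alternatives varied the reach, the TSS set, the merging and the sites kept. Scripts ran in Python 3.11.15 with pysam 0.24.0, samtools 1.23.1 and matplotlib 3.10.9, and were tested on simulated sites.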

Additional observations from a re-analysis of the deposited data

How the results depend on the processing

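Counts that moved by more than 1.5 times did so mainly when sites were dropped by width. With only sites of median width or more in each list, the 10 genes held 34 regions, of which 17 (MES), 24 (HB), 11 (HE), 1 (HP) and 7 (MAC) were open by stage; 16 were open in MES or HB and no later stage, 9 in later stages and not before, and 0 in all 5. HP then had 1 promoter site, that of Tbx6, and MAC 0. With every list cut to its widest sites at the length of the HP list, HE had 11 regions and MAC 6, with 10 regions open in later stages and not before, 0 in all 5 and 0 promoter sites in MAC. With windows merged at 250 bp, 0 regions were open in all 5 stages. A reach of 50 kb left 3 regions in HP. A promoter reach of 2 kb gave 4 genes in MAC (Mixl1, Mesp2, Tbx6 and Gsc), and a reach of 100 bp gave 1 in HP (Lhx1) and 0 in MAC. The cause of these shifts beyond the sites or regions each setting drops was not tested. In the other 67 comparisons of a group count with an alternative it stayed within 1.5 times. Of the counts of promoter stages of single genes, 47 comparisons stayed within that limit and 3 did not: Tbx6 from 4 stages to 0 at 100 bp, and Gsc from 2 to 4 at 2 kb and to 1 (HB) with sites of median width or more. The share of regions open in MES or HB only ran from 42.6% to 59.1% for the 10 genes over all settings, and from 12% to 18.7% for all regions. No paired analysis was possible because each stage had 1 sample. Read totals per library were not analysed here, so no limit is given for an unlisted site, and site width depends on the caller and the list.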
